A study of Mus musculus with 9 samples.

Results

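In mouse embryonic stem cells, 346 of 4633 Phf19 binding sites, 7.47% of the list (95% exact interval 6.73 to 8.26), overlapped exactly 1 of the other marks of Polycomb repressive complex 2 (PRC2). These sites form 2 classes. The Suz12-only class holds 199 sites (4.30%, 3.73 to 4.92) that shared at least 1 base with a Suz12 site and none with a control H3K27me3 site. The H3K27me3-only class holds 147 sites (3.17%, 2.69 to 3.72) with the reverse pattern. The members were chosen by their overlaps with these 2 lists, so the class sizes are a description. The remaining Phf19 sites overlapped both lists (3199 sites) or neither (1088 sites) and serve as the comparison.

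PRC2 places 3 methyl groups on lysine 27 of histone H3, and the resulting mark, H3K27me3, covers silenced developmental genes in embryonic stem cells. Suz12 is a core subunit of the complex that its activity requires. Phf19 is a Polycomb-like protein that associates with PRC2 and binds histone H3 methylated on lysine 36. In a common picture the enzyme, its accessory protein and its product occupy the same places. The sites described here carry Phf19 with listed Suz12 but without the listed mark, or with the listed mark but without listed Suz12.

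The assay was chromatin immunoprecipitation followed by sequencing in E14Tg2A cells, an established mouse embryonic stem cell line that was cultured on gelatin with serum and leukemia inhibitory factor (LIF), without feeders. Phf19 (2 replicates, combined by the authors into 1 list of common sites) and Suz12 (1 library) were mapped in wild-type cells. H3K27me3 was mapped in cells with a random control hairpin (shRd, 1 library, genotype labelled wild type) and in cells depleted of Phf19 by a hairpin (shPhf19, 1 library). All groups come from this single line, and how far the hairpin lowered Phf19 is unknown here. The 4 lists hold positions in build mm9 and no heights or counts, so read depth is unknown. The H3K27me3 lists differ in size, with 8280 control sites over 24.3 Mb and 1180 shPhf19 sites over 2.07 Mb. A site that is missing from a list may lie under the peak threshold, and "listed" below means no more than presence in the list. Intervals cover counting error only and treat sites as independent, which neighbouring sites are not.

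The 1-base rule splits sites that differ little. The Suz12-only site with the smallest overlap shared 5 bases with its Suz12 site (chromosome 6, 121413511 to 121413932), and the one nearest to control H3K27me3 lay 12 bp away (chromosome 15, 85501043 to 85501443). The H3K27me3-only site with the smallest overlap shared 1 base (chromosome 10, 42335972 to 42336433), and the one nearest to Suz12 lay 2 bp away (chromosome 15, 102741649 to 102742021). On the other side of the rule, sites with both partners shared as few as 7 bases with control H3K27me3 and 4 bases with Suz12. Sites with neither lay as close as 49 bp to Suz12 and 1 bp to H3K27me3.

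The Suz12-only sites were wider and more varied than the H3K27me3-only sites. Their widths ran from 176 to 3963 bp with a median of 453 bp (95% interval of the median 438 to 521) and an upper quartile of 918 bp. H3K27me3-only sites ran from 175 to 908 bp, with a median of 392 bp (378 to 423) and an upper quartile of 474 bp. Sites with both partners had a median of 582 bp and reached 8335 bp, while those with neither had a median of 374 bp and reached 994 bp. The H3K27me3-only widths thus lay close to those of sites with neither partner. The wide Suz12-only sites were concentrated in 4 loci described below, where the median was 934 bp. The other 120 Suz12-only sites had a median of 410 bp. A wider site has more chances to overlap a list, so width is not independent of the rule and carries no test.

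**Figure D1:**
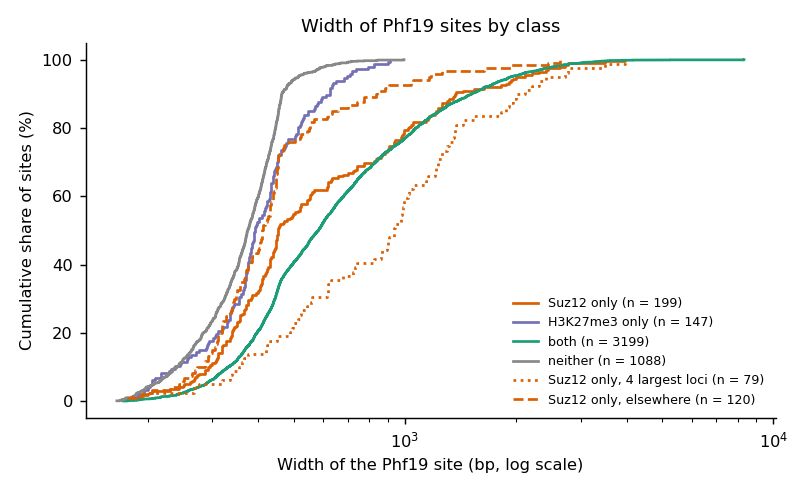
Cumulative share of Phf19 sites (y, percent) against site width (x, bp, log scale) for each class, with the Suz12-only class also split into its 4 largest loci and the rest. The H3K27me3-only curve (median 392 bp) lies between those of sites with neither (374 bp) and with both (582 bp), and the Suz12-only sites of the 4 largest loci (median 934 bp) lie farthest to the right.

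The 5 widest Suz12-only sites were all on shPhf19 H3K27me3 sites. They lay at chromosome 2, 74527906 to 74531869 (3963 bp), chromosome 2, 74517947 to 74521445 (3498 bp), chromosome 15, 102804693 to 102807467 (2774 bp), chromosome 2, 74541482 to 74544201 (2719 bp), and chromosome 16, 35541308 to 35543946 (2638 bp). The 4 on chromosomes 2 and 15 belong to the large loci, and the one on chromosome 16 stood alone. The 5 widest H3K27me3-only sites were at chromosome 6, 99468821 to 99469729 (908 bp), chromosome 1, 74848198 to 74849097 (899 bp), chromosome 7, 77430671 to 77431495 (824 bp), chromosome 12, 102955150 to 102955941 (791 bp), and chromosome 2, 73113305 to 73114043 (738 bp). Each of these had a Suz12 site within 294 bp, and those on chromosomes 1 and 2 overlapped an shPhf19 site.

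The gap from an H3K27me3-only site to the nearest Suz12 site had a median of 469 bp (348 to 629), and 97 of 147 sites, 66.0% (57.7 to 73.6), had Suz12 within 1 kb. The gap from a Suz12-only site to the nearest control H3K27me3 site had a median of 10550 bp (7350 to 13435), and 63 of 199 sites, 31.7% (25.3 to 38.6), had the mark within 1 kb. Much of the Suz12-only gap came from the 4 large loci. Without them its median was 1179.5 bp (533 to 5558), and without loci of 5 or more members 630 bp (449 to 6993). Both medians were still above the 469 bp of the H3K27me3-only class, with intervals that overlap the interval of that class. Where sites within 1 kb counted as overlapping, the medians were 17862 bp (14592 to 21680) for Suz12-only and 35867 bp (6996 to 93249) for H3K27me3-only sites. Their order was the reverse, but the intervals overlapped. That setting leaves no gap of 1 kb or less, and the classes then held 148 and 62 sites. At 50 kb the intervals of the classes overlapped, with 86.4% (79.8 to 91.5) of H3K27me3-only and 85.4% (79.7 to 90.0) of Suz12-only sites. Of sites with neither partner, 1.75% had Suz12 and 1.75% had H3K27me3 within 1 kb, and 30.9% and 31.3% had them within 50 kb. The rule itself sets every gap above 0, so these distances are a description.

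**Figure D2:**
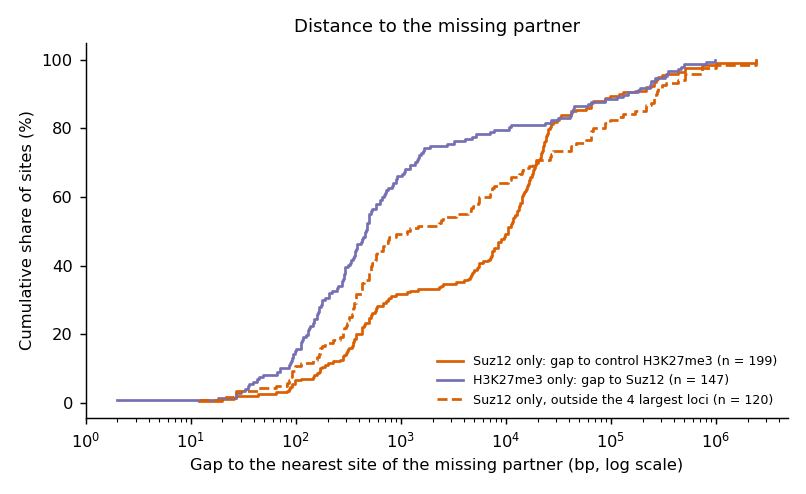
Cumulative share of sites (y, percent) against the gap to the nearest site of the missing partner (x, bp, log scale), for H3K27me3-only sites (to Suz12), Suz12-only sites (to control H3K27me3) and the Suz12-only sites outside the 4 largest loci. The H3K27me3-only curve reaches 66.0% at 1 kb and the Suz12-only curve 31.7%, and the steep rise of the latter beyond 10 kb is missing from the dashed curve.

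A single H3K27me3 or Suz12 site can carry the missing partner elsewhere along its length, and this was the usual case in the H3K27me3-only class. Its 147 Phf19 sites lay on 136 distinct control H3K27me3 sites, and 98 of these, 72.1% (63.7 to 79.4), overlapped a Suz12 site at another position. Those 98 domains were broad, with a median width of 5442 bp, and the Phf19 sites in them lay a median of 290 bp from Suz12. The other 38 domains held no listed Suz12 at any position. They were narrow, with a median of 1862 bp and none above 5996 bp, and their 40 Phf19 sites lay a median of 52508 bp from Suz12. The Phf19 sites themselves had similar widths in the 2 settings, 389 and 397 bp in the median.

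The farthest from Suz12 among these were at chromosome 8, 18563565 to 18564012 (gap 971 kb, on an H3K27me3 site of 1610 bp), chromosome 16, 42340227 to 42340581 (806 kb, 1198 bp), and chromosome 15, 42507729 to 42508088 (492 kb, 1520 bp). All 3 lay on single short H3K27me3 sites, and their Phf19 widths of 447, 354 and 359 bp were ordinary for the class.

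The Suz12-only sites lay on 135 distinct Suz12 sites, of which 63, 46.7% (38.0 to 55.4), overlapped control H3K27me3 at another position. The other 72 Suz12 sites, holding 126 Phf19 sites, touched no listed H3K27me3. Members on the first kind lay a median of 357 bp from the mark and those on the second kind 18734 bp. The farthest were at chromosome 1, 114313217 to 114313567 (gap 2431 kb), chromosome X, 154480085 to 154480588 (2419 kb), and chromosome X, 95345745 to 95346088 (1004 kb). The partner Suz12 sites had a median width of 2372 bp (1960 to 2773), against 2852 bp for the 1764 Suz12 sites whose overlapping Phf19 sites included some with both partners and none with Suz12 alone.

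The share of Phf19 sites near a border of their domain fell with the width of the domain. A short domain has little or no room farther than 1 kb from a border, so the measure itself largely sets this fall. The centre of the Phf19 site lay within 1 kb of a border of the control H3K27me3 site, or beyond it, in 49.7% (41.3 to 58.0) of the H3K27me3-only class and in 28.5% (27 to 30.1) of sites with both. H3K27me3-only sites were more often on short domains, however, with 42.2% (34.1 to 50.6) on domains under 3 kb, against 16.4% (15.1 to 17.7) of sites with both. Within domains of like width the intervals of the 2 kinds overlapped. The shares near a border were 93.5% (84.3 to 98.2) and 87.6% (84.5 to 90.3) under 3 kb, 35.3% (19.7 to 53.5) and 27.8% (25.2 to 30.5) from 3 to 6 kb, and 5.88% (1.23 to 16.2) and 8.66% (7.29 to 10.2) at 6 kb or more.

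Members of both classes had more Phf19 sites around them than sites with neither partner. Another Phf19 site lay within 10 kb of 74.4% (67.7 to 80.3) of Suz12-only and 61.9% (53.5 to 69.8) of H3K27me3-only sites, against 78.7% (77.2 to 80.1) of sites with both and 6.16% (4.80 to 7.75) of sites with neither. The nearest other Phf19 site was of the same class for 109 of 199 Suz12-only sites. For H3K27me3-only sites it was usually a site with both partners (101 of 147), and it was of the same class for 23. The count for Suz12-only sites came mostly from the 4 loci described next, where the nearest site was of the same class for 75 of 79. Among the other 120 it was of the same class for 34 and had both partners for 64, so outside these loci a site with both was the most frequent neighbour of either class.

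Chaining members of a class that lay within 50 kb of each other gave 99 Suz12-only loci and 126 H3K27me3-only loci. The largest H3K27me3-only locus held 3 sites, whereas 4 Suz12-only loci held 31, 24, 13 and 11 sites, together 79 of 199 (39.7%, 32.8 to 46.9). The locus of 31 sites spanned 60.5 kb at chromosome 15, 102786115 to 102846630. That of 24 sites spanned 47.8 kb at chromosome 11, 96131743 to 96179530. The locus of 13 sites spanned 29.2 kb at chromosome 2, 74515985 to 74545185, and that of 11 sites spanned 29.7 kb at chromosome 6, 52142006 to 52171691. These positions are, from general knowledge of the mouse genome, those of the Hoxc, Hoxb, Hoxd and Hoxa gene clusters, which encode the transcription factors that set position along the body axis and are classical Polycomb targets. No mm9 gene annotation was used to check this.

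In each of the 4 loci Suz12 sites covered most of the span and control H3K27me3 sites covered none of it. Suz12 covered 81.5%, 89.7%, 82.1% and 76.0% of the loci on chromosomes 15, 11, 2 and 6. Control H3K27me3 was listed on both flanks of each, 457 bp to the left and 7721 bp to the right of the chromosome 15 locus, 4982 and 800 bp from that on chromosome 11, 4734 and 14135 bp from that on chromosome 2, and 202 and 148 bp from that on chromosome 6. H3K27me3 sites of the Phf19-depleted cells covered 59.5%, 48.1%, 72.7% and 48.2% of the same spans, with 20, 10, 9 and 7 sites. The mark was thus listed inside these spans in the depleted cells and not in the control cells. The loci were chained from sites chosen for having Suz12 and no control H3K27me3. At the members the rule therefore set both of these, and the overlap with the shPhf19 list alone was left free. These coverages are a description and carry no test of a gain.

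**Figure D3:**
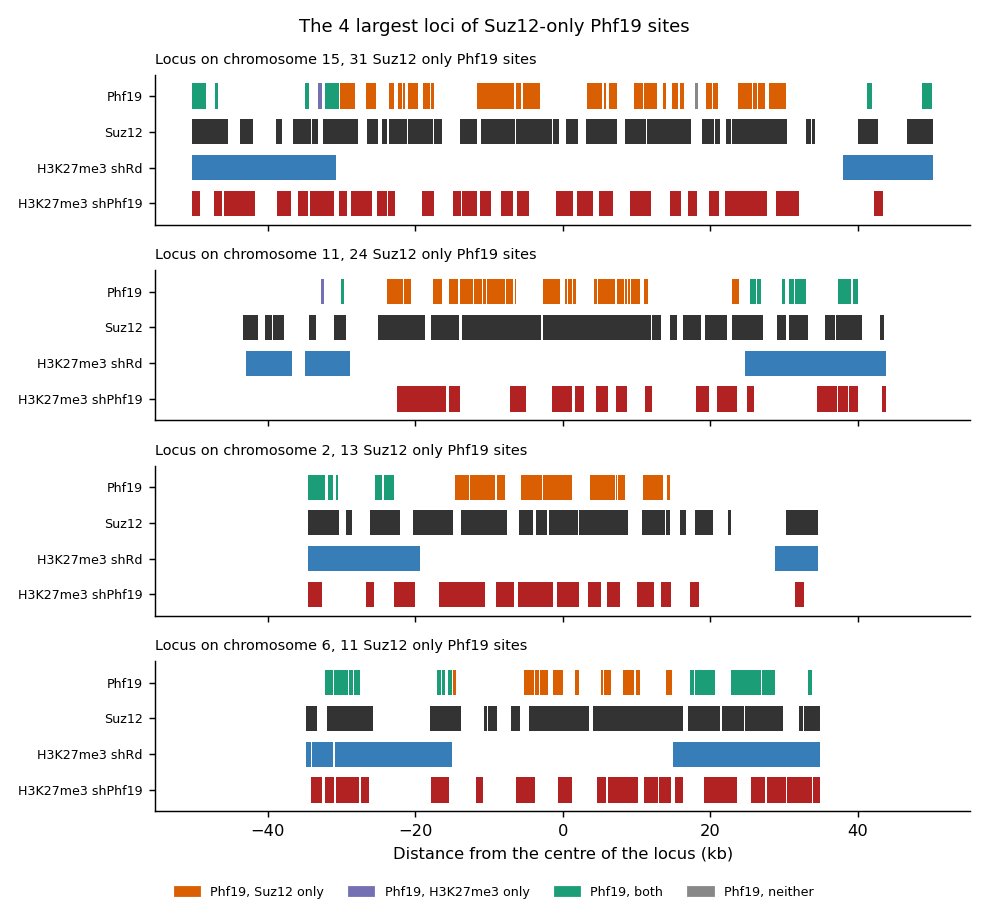
Sites of the 4 lists (bars, rows) around the 4 largest loci of Suz12-only Phf19 sites, by distance from the centre of each locus (x, kb), drawn to 20 kb beyond its first and last member. Phf19 sites are coloured by class. Control (shRd) H3K27me3 sites lie on both flanks of each locus and not within it, while Suz12 and shPhf19 H3K27me3 sites lie within it. The loci were chained from sites chosen for having Suz12 and no control H3K27me3.

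A further 5 Suz12-only loci held 3 or more sites. The locus at chromosome 16, 17797567 to 17807519, held 6 sites, 4 of them on an shPhf19 site, and 2 Suz12 sites covered 99.7% of it. The locus at chromosome 5, 102088303 to 102093645, held 5 sites, 4 on an shPhf19 site. At chromosome 6, 85135948 to 85141127, 2 of 4 sites were on an shPhf19 site. At chromosome 2, 147863875 to 147870610, none of 3 was, and at chromosome X, 11667413 to 11735053, none of 5 was. Control H3K27me3 lay 4610, 778, 14592, 1148 and 264 bp from the nearest member of these 5 loci in the order given.

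Of the 36 Phf19 sites on the X chromosome 15 were Suz12-only, against 184 of 4596 on the autosomes. Class membership is what the rule set and the X was singled out after its values were seen, so these counts carry no test. The 15 sites fell into 8 loci, 5 of them in the locus just given, and had ordinary widths, with a median of 437 bp. Their gap to control H3K27me3 ranged from 83 bp to 2419 kb with a median of 5558 bp. None overlapped an shPhf19 site (0 to 21.8%), nor did any of the 17 X-linked sites with both partners (0 to 19.5%). The X held 244 Suz12, 124 control H3K27me3 and 43 shPhf19 sites, and 0 of its 36 Phf19 sites were H3K27me3-only (0 to 9.74%).

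Among the H3K27me3-only sites, 108 of 126 loci consisted of 1 site and 3 loci held 3. The locus at chromosome 15, 102741649 to 102783681, adjoins the largest Suz12-only locus on its left. Its 3 H3K27me3-only sites lay among 6 Phf19 sites with both partners, 2 to 205 bp from Suz12, and 2 of the 3 were on an shPhf19 site. At chromosome 3, 128898154 to 128925726, the 3 sites lay among 11 Phf19 sites with both, 291 to 1425 bp from Suz12. At chromosome 7, 77429323 to 77472516, they lay among 2 sites with both, 165 to 477 bp from Suz12. None of the 6 sites of these last 2 loci was on an shPhf19 site, although 5 shPhf19 sites lay in the chromosome 3 locus.

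**Figure D4:**
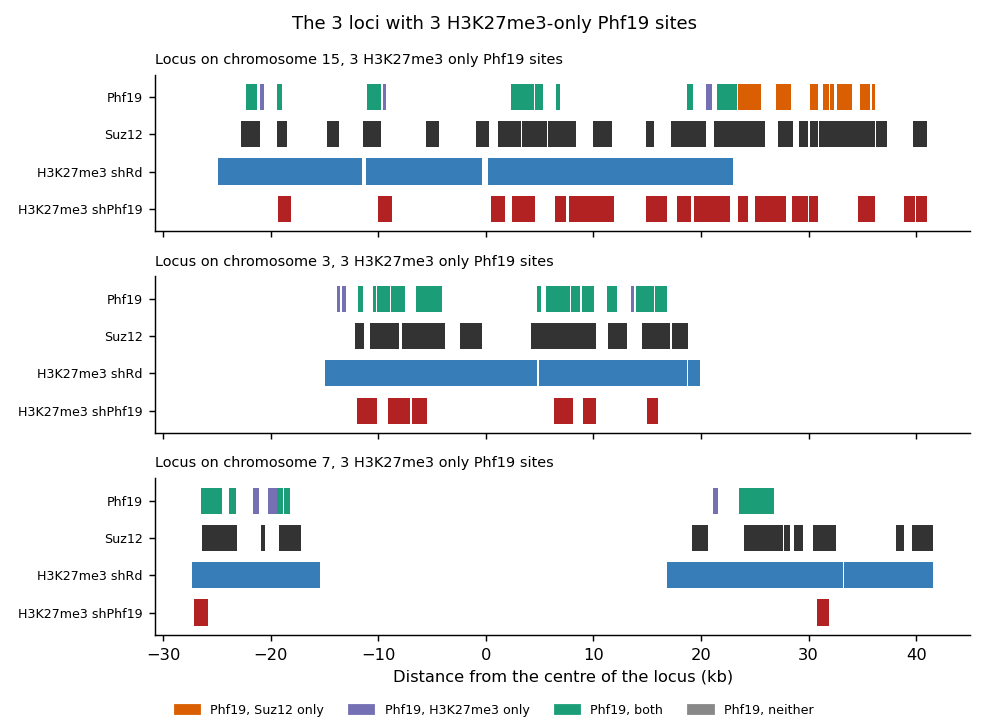
Sites of the 4 lists (bars, rows) around the 3 loci with 3 H3K27me3-only Phf19 sites, by distance from the centre of each locus (x, kb), drawn to 20 kb beyond its first and last member. H3K27me3-only sites (purple) lie on control H3K27me3 and off Suz12, as the rule required. In these loci they are 237 to 824 bp wide and lie among Phf19 sites with both partners (green).

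The list from Phf19-depleted cells was not used to choose the members. Of all Phf19 sites, 20.7% overlapped an shPhf19 H3K27me3 site. The share was 74 of 199, 37.2% (30.5 to 44.3), in the Suz12-only class and 17 of 147, 11.6% (6.88 to 17.9), in the H3K27me3-only class. Sites with both partners stood at 27% (865 of 3199, 25.5 to 28.6) and sites with neither at 0.184% (0.0223 to 0.662). The classes differed by 25.6 points (16.7 to 33.7), and the H3K27me3-only class lay below the sites with both (difference -15.5 points, -20.0 to -9.12). The shRd and shPhf19 lists are 1 library each, so these shares have no replicate behind them and are given without p-values. Their antibodies carry the catalogue numbers 07449 and 07450 in the labels, and the part of this in any difference between the lists was not tested.

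**Figure D5:**
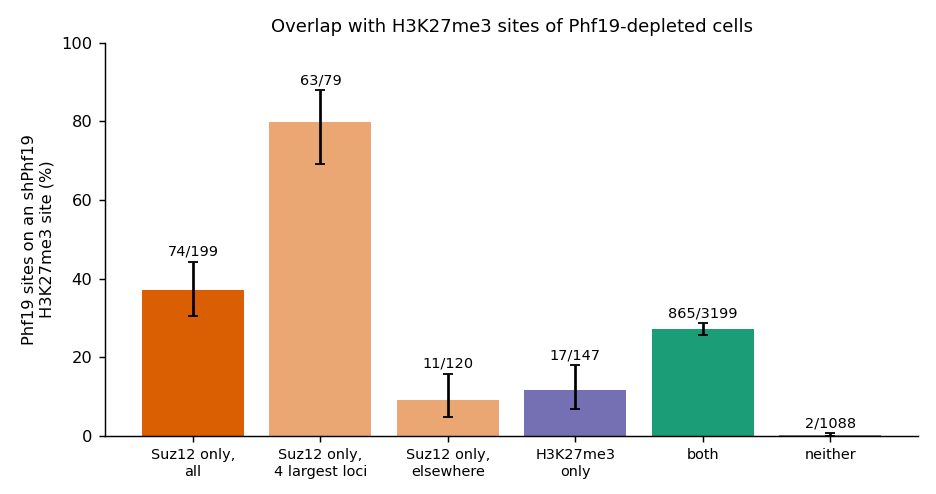
Share of Phf19 sites that overlapped an H3K27me3 site of Phf19-depleted cells (y, percent) by class, with the Suz12-only class also split into its 4 largest loci and the rest. Error bars are exact 95% intervals over sites, and the numbers give sites on an shPhf19 site over all sites. The high bar of the 4 loci (63 of 79) stands apart from the 11 of 120 elsewhere.

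The higher share of the Suz12-only class came from few loci. In the 4 largest, 63 of 79 sites, 79.7% (69.2 to 88.0), were on an shPhf19 site, namely 25 of 31 on chromosome 15, 18 of 24 on chromosome 11, 13 of 13 on chromosome 2 and 7 of 11 on chromosome 6. Outside them 11 of 120 were, 9.17% (4.67 to 15.8), and the difference from the H3K27me3-only class was then -2.40 points (-9.74 to 5.35). These 120 sites, like the H3K27me3-only class, lay below the sites with both (difference -17.9 points, -22.1 to -11.2). Those 11 sites lay in 4 loci, so that 8 of 99 Suz12-only loci, 8.08% (3.55 to 15.3), held any member on an shPhf19 site, against 15 of 126 H3K27me3-only loci, 11.9% (6.82 to 18.9). Phf19 sites with both partners within 50 kb of the 4 loci were on an shPhf19 site in 54 of 81 cases, 66.7% (55.3 to 76.8). Most of these were beside the chromosome 6 locus, with 31 of 36 (86.1%, 70.5 to 95.3), above the 7 of 11 of its Suz12-only sites (63.6%, 30.8 to 89.1). Beside the loci on chromosomes 15, 11 and 2 they were 7 of 14, 9 of 17 and 7 of 14, below the shares of the Suz12-only sites there. The intervals were 23.0 to 77.0%, 27.8 to 77.0% and 23.0 to 77.0%. Those of the Suz12-only sites were 62.5 to 92.5%, 53.3 to 90.2% and 75.3 to 100%. At each of the 4 loci the intervals of the 2 kinds overlapped.

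Sites with no other site of their own class within 50 kb, called lone here, gave the reverse order. Phf19 sites of other classes could lie close to them, so lone sites are not isolated sites. The lone H3K27me3-only site at chromosome 2, 73113305 to 73114043, for example, lay 76 bp from a site with both. The 3 lone groups may thus differ in their surroundings, and the part of this in the shares was not tested. Of lone Suz12-only sites, 1 of 83 was on an shPhf19 site, 1.20% (0.0305 to 6.53), the site at chromosome 16, 35541308 to 35543946. Of lone H3K27me3-only sites 12 of 108 were, 11.1% (5.87 to 18.6), and of lone sites with both 79 of 654, 12.1% (9.68 to 14.8). The share of lone Suz12-only sites was below that of lone H3K27me3-only sites (difference -9.91 points, -17.3 to -2.86) and of lone sites with both (-10.9, -13.8 to -5.10). For lone H3K27me3-only sites against lone sites with both, the interval of the difference held 0 (-0.968, -6.35 to 6.69).

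The 74 Suz12-only sites lay on 46 distinct shPhf19 sites, and the 17 H3K27me3-only sites on 17. The rule bears on how these relate to the control list, since it took Suz12-only sites for having no control H3K27me3 and H3K27me3-only sites for having it. As a description, 0 of the 46 and 17 of the 17 overlapped a control site at any position. Of the 1180 shPhf19 sites, 163 had no control site. The 46 are part of these 163, and 38 of the 46 were in the 4 loci. All 17 shPhf19 sites under H3K27me3-only sites also overlapped a Suz12 site at another position, which the rule did not require. The share of all shPhf19 sites that overlap Suz12 is not given here, so this count is not read as particular to the class. The shPhf19 sites had a median width of 1700 bp under Suz12-only and 1555 bp under H3K27me3-only sites.

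The 17 H3K27me3-only sites on an shPhf19 site were spread over 16 control domains with widths of 2540 to 22749 bp. All 17 lay on domains that held Suz12 elsewhere, 35 to 325 bp from it. They were 17 of 107 such sites, 15.9% (9.54 to 24.2), against 0 of 40 sites on domains without Suz12 (0 to 8.81%). The domains without Suz12 were also the narrower ones, and the part of domain width in this contrast was not tested. A pair lay on 1 domain at chromosome 11, 96028958 to 96048072 (19.1 kb), where the shPhf19 sites spanned 1555 and 4255 bp. Others were at chromosome 2, 73113305 to 73114043, chromosome 1, 186543172 to 186543574, and chromosome 6, 52112078 to 52112688, on domains of 20.4, 17.0 and 13.6 kb. The narrowest domain of the set was at chromosome 7, 88358360 to 88360900.

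Domain width moved with this share. On control domains under 3 kb, 1 of 62 H3K27me3-only sites was on an shPhf19 site (1.61%, 0.0408 to 8.66), against 7.06% of sites with both, a difference of -5.45 points (-8.30 to 1.78). From 3 to 6 kb it was 4 of 34 (11.8%, 3.30 to 27.5) against 15.4%, a difference of -3.64 points (-11.1 to 11.3). Both intervals held 0. At 6 kb or more it was 12 of 51 (23.5%, 12.8 to 37.5) against 42.9% (40.4 to 45.4), a difference of -19.4 points (-29.2 to -5.90). Of the 136 domains 39 had an shPhf19 site somewhere along them, 28.7% (21.3 to 37.1), close to the 28.1% (25.9 to 30.4) of domains with sites of both partners and no H3K27me3-only site. The share among all control H3K27me3 sites was 8.96%.

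The comparison could also be made within domains. A set of 66 control domains held H3K27me3-only sites together with Phf19 sites that had both partners. In them 15 of 74 H3K27me3-only sites were on an shPhf19 site, 20.3% (11.8 to 31.2), against 82 of 200 neighbours with Suz12, 41% (34.1 to 48.2), a difference of -20.7 points (-31.0 to -8.32). The H3K27me3-only sites were the narrower ones, with a median of 390 bp against 619 bp, and the part of width in this difference was not tested within domains. Over all domains, among Phf19 sites under 400 bp the shares were 5 of 77, 6.49% (2.14 to 14.5), and 15.6% (12.9 to 18.6), a difference of -9.11 points (-13.8 to -0.879). From 400 to 799 bp they were 11 of 67, 16.4% (8.49 to 27.5), and 20.4% (18.4 to 22.5), with an interval of the difference that held 0 (-4.02, -11.3 to 6.80).

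Among Suz12-only sites the share on an shPhf19 site rose with Phf19 width outside the 4 loci, from 1 of 52 under 400 bp (1.92%, 0.0487 to 10.3) and 3 of 55 from 400 to 799 bp (5.45%, 1.14 to 15.1) to 7 of 13 at 800 bp or more (53.8%, 25.1 to 80.8). Those 7 sites are among the 11 that lay in 4 loci. The differences from sites with both of like width were -13.7 points (-17.0 to -5.09), -15.0 (-19.1 to -5.38) and 9.50 (-15.4 to 32.6), and the last interval held 0. Inside the 4 largest loci the share was high in every width group, with 8 of 11, 15 of 21 and 40 of 47. On the 33 Suz12 sites that held a Suz12-only Phf19 site beside one with both partners, 2 of 35 and 9 of 48 were on an shPhf19 site, and the interval of the difference held 0 (-13.0, -26.9 to 2.44). Of the 135 partner Suz12 sites, 42 had an shPhf19 site somewhere along them, 31.1% (23.4 to 39.6), against 11.0% of all Suz12 sites and 32.7% (30.5 to 34.9) of those with Phf19 sites of both partners and no Suz12-only site.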

How the data were processed

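The deposited values are 4 lists of site positions, each giving the chromosome, start and end as the authors deposited them, with no score or height. Per the submitters' processing notes, MACS 1.4.1, Bowtie 0.12.7 and build mm9 were used, in roles that the notes do not state. The Phf19 list contains the sites seen in both replicates, per the series' design text. Not given in the sources used here are the peak threshold, the control libraries and whether starts count from 0 or 1. Libraries for IgG, H3K36me2 and H3K36me3 were not analysed here, and without an mm9 reference no gene annotation or site sequence was used.

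Width is end minus start, and a gap is the number of bases between site borders. Shares carry exact Clopper-Pearson 95% intervals, medians order-statistic intervals and differences of shares Newcombe intervals, all for counting error only. Members of a class within 50 kb were chained into loci. Named were the 5 widest sites of each class, the 3 nearest to and 3 farthest from the missing partner, loci of 3 or more, and H3K27me3-only sites on an shPhf19 site, of which part are given as ranges. The members, lists and rules were chosen with earlier results of these data known. The split at loci of more than 10 members, the width groups, the border shares, the lone sites and the sites of the X were chosen after the values were seen. The class sizes and their overlaps with the shPhf19 list were checked with bedtools 2.31.1 (4 of 4 counts equal), and the overlap, gap and interval code was tested on simulated data. Computation used scipy 1.17.1, pandas 2.3.3 and numpy 2.4.6 under Python 3.11.15, and plots matplotlib 3.10.9.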

Additional observations from a re-analysis of the deposited data

How the results depend on the processing

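Of 91 alternatives for 13 results, 54 stayed within the interval of the value (or within 1.5 times a count, or on the same side of 0 for the difference), 35 moved and 2 reversed. Where overlap required 50% of the shorter site, the Suz12-only class had a median gap of 852 bp, 21.8% on an shPhf19 site and 160 loci, and the H3K27me3-only class a width of 427 bp and a gap of 148 bp. Counting sites within 1 kb as shared gave a gap of 17862 bp, 57.4%, a partner width of 1847 bp and 55 loci for Suz12-only, and 62 sites, a gap of 35867 bp, 1.61%, a partner width of 1978 bp and 59 loci for H3K27me3-only. Restricting each list to its wider part (median width and up), the Suz12-only width, gap, share and partner width were 731 bp, 19886.5 bp, 28.6% and 2906 bp, and the H3K27me3-only width, gap and partner width 600 bp, 1592 bp and 5531 bp. Merging Phf19 sites within 1 kb left 97 Suz12-only sites with 25.8% on an shPhf19 site, and 87 H3K27me3-only sites with a gap of 1080 bp, 2.30% and a partner width of 2299 bp. Without loci of 5 or more members, 104 Suz12-only sites remained, with a width of 405.5 bp, a gap of 630 bp and 2.88% on an shPhf19 site, and the difference between the classes was -8.68 points (-15.1 to -1.94). Without loci of more than 10 members, an alternative added after seeing the data, these values were 120, 410 bp, 1179.5 bp, 9.17% and -2.40 points. These 2 reversals follow from the large Suz12-only loci that they leave out; for the other moved values the cause was not tested. Leaving out a Phf19 replicate, and sequence or gene features, were not run, because the list gives common sites alone and no mm9 reference was used. No paired analysis was possible because only Phf19 has replicates and its list joins them. Read depth is unknown, so a site under the peak threshold cannot be told apart from one without the mark.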
